A study of Mus musculus with 8 samples.

Results

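The tumour suppressor p53 is a transcription factor that is stabilised after DNA damage and other stress. It then switches on genes that halt the cell cycle, and genes whose products turn p53 itself down again. Among the genes of arrest, Cdkn1a encodes p21, which binds and blocks the cyclin-dependent kinases. Among those of feedback, Mdm2 encodes the ubiquitin ligase that marks p53 for degradation. Preadipocytes are dividing stromal cells that can mature into fat cells. The 10 genes described here were taken by name as known p53 targets of growth arrest and feedback: Cdkn1a, Btg2, Ptprv, Zmat3, Mdm2, Ccng1, Trp53inp1, Plk2, Plk3 and Sesn1. All probe sets whose platform annotation gave exactly 1 symbol, being 1 of these names, were used. They came to 21 of the 45101 probe sets on the array, and all 10 genes were among the 13256 genes tested, out of 18194 with such a probe set.

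The cells were subcutaneous preadipocytes isolated from day 2 newborn C57BL/6 mice with the Dicer lox/lox genotype, in which Cre recombinase can excise a part of Dicer, the ribonuclease that makes mature microRNAs. Both groups carried the floxed alleles and were infected at 750 MOI in 4 µg/mL polybrene. The adenovirus encoded eGFP in the 4 control samples and both Cre and eGFP in the 4 Dicer knockout samples, and the names of both viruses include the CMV promoter. RNA was collected 4 days later and measured on Affymetrix arrays, 1 per sample. The labels do not say whether biological replicates were separate animals, pools or cultures, so p-values cover only the spread among these samples, which may be technical. As 0 arrays had Cre without floxed Dicer, effects of Cre and of Dicer loss cannot be told apart.

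Signals are in arbitrary linear units, scaled per array, and the number of arrays limits the precision. The median signal was 321.1 to 418.9 over the 8 arrays. Dicer1 was not called different in either limma fit (log2 difference -0.15, SE 0.20), and the sources used here do not say whether its probe set lies in the excised part. All 11 stromal and preadipocyte markers on the array were bright enough to be tested, as were 2 of 5 adipocyte markers, 5 of 8 of macrophages and leukocytes, 3 of 7 of endothelium and 4 of 7 of skeletal muscle. Ptprc of leukocytes (8.5 to 138.4) and Pecam1 of endothelium (43.2 to 210.1) were too dim, whereas Cd68 of macrophages read 724.3 to 1749.8 and Kdr of endothelium 810.8 to 1257.4. In bulk RNA such as this, fewer cells of a type and less RNA per cell cannot be told apart.

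A p53 response element is a pair of decamers with a shared consensus, called the p53 decamer here, which reads the same on both strands. The RefSeq windows from 250 bases before to 50 bases after annotated starts (build GRCm38.p6) held 7 of the 10 genes in 9 windows, and Zmat3, Trp53inp1 and Ptprv had no entry. At least 1 full match was found in 4 of the 9 windows, those of Cdkn1a at its upstream start, Mdm2, Ccng1 and Sesn1 at its downstream start, against 8.36% of all 32851 windows. The 4 windows are shown because they hold these matches, 5′ to 3′ on the strand of the gene, with capitals for a full match and for a decamer with 1 mismatch that directly adjoins it.
Cdkn1a (chr17:29090729-29091028, plus strand): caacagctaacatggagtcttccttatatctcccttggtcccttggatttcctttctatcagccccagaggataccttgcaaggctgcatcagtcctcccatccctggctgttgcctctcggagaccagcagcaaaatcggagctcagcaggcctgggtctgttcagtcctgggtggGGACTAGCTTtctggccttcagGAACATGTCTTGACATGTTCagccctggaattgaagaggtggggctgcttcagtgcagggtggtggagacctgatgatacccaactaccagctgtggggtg
Mdm2 (chr10:117710709-117711008, minus strand): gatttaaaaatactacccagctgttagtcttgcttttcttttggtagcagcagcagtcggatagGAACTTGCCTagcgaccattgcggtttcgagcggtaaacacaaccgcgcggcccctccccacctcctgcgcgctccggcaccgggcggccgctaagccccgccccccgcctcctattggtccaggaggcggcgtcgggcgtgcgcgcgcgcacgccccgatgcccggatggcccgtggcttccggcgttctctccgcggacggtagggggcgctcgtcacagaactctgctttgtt
Ccng1 (chr11:40755237-40755536, minus strand): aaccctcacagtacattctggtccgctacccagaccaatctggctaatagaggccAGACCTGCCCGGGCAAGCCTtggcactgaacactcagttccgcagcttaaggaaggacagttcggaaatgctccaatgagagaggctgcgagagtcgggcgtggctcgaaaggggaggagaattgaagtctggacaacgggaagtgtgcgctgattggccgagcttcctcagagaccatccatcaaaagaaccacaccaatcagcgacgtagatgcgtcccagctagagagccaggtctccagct
Sesn1 (chr10:41887189-41887488, plus strand): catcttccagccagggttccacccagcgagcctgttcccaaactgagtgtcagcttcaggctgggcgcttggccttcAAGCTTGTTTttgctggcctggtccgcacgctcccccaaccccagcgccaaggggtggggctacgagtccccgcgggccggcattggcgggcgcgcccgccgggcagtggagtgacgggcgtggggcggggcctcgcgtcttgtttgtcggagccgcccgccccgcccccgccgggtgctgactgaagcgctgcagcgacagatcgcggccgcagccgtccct
In Cdkn1a the adjoining pair was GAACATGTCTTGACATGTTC, which begins 51 bases before the upstream start, and a further single match begins 73 bases before it. In Ccng1 the pair was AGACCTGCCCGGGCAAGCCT, beginning 195 bases before the start. Such a pair with at most 1 mismatch was in 0.0883% of all windows. Mdm2 and Sesn1 each had a single match, GAACTTGCCT and AAGCTTGTTT, beginning 186 and 173 bases before the start. A match is a description of the letters and was not tested for binding. For Btg2, Plk2, Plk3 and the other windows of Cdkn1a and Sesn1, these letters were not in the window.

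Among the 10 genes, 9 had a log2 difference (knockout minus control) above 0, against 49.6% of all genes tested; of these Sesn1, at 0.01, turned to -0.0141 when arrays were centred on their medians. The exception was Plk3. Counts of genes use the brightest tested probe set of each, and 15 of all 19 tested probe sets were above 0. The median log2 difference was 0.29, against -0.0020 over all genes. The genes were picked with earlier results of these arrays known, so none of these values is independent evidence of a direction. In the unpaired limma fit 0 of the 10 were called (adjusted p = 0.999 for each of their 19 tested probe sets), as were 0% of genes as higher and 0% as lower. At an unadjusted p under 0.05 there was 1 of the 10, Ptprv, against 1.99% of genes as higher. In 0 of the 10 did all knockout arrays lie above all control arrays, which held for 1.3% of genes.

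Control and knockout arrays that share a replicate number deviated together, so each number was taken as a pair and a second limma fit was made with the number as a block (the paired fit). By pairs, 6 of the 10 genes were higher in the knockout in 4 of 4 pairs, namely Cdkn1a, Mdm2, Ccng1, Btg2, Zmat3 and Ptprv, against 8.64% of genes. On its brightest probe set none was lower in all 4, against 9.47%, though the dimmer Sesn1 probe set 1433711_s_at was. In the paired fit 1 of the 10, Ptprv, was called higher, against 0.0604% of genes as higher and 0.0151% as lower. In the same fit 7 were higher at an unadjusted p under 0.05, the 6 above and Plk2, against 4.96%. Each pair was also left out in turn, an alternative chosen after the data were seen. Then 5 to 7 of the 10 were higher at that p, against 3.75% to 5.79% of genes. The genes were picked with earlier results of these arrays known, and several correlated closely over the arrays. These counts are therefore not independent evidence of a direction either.

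**Figure D1:**
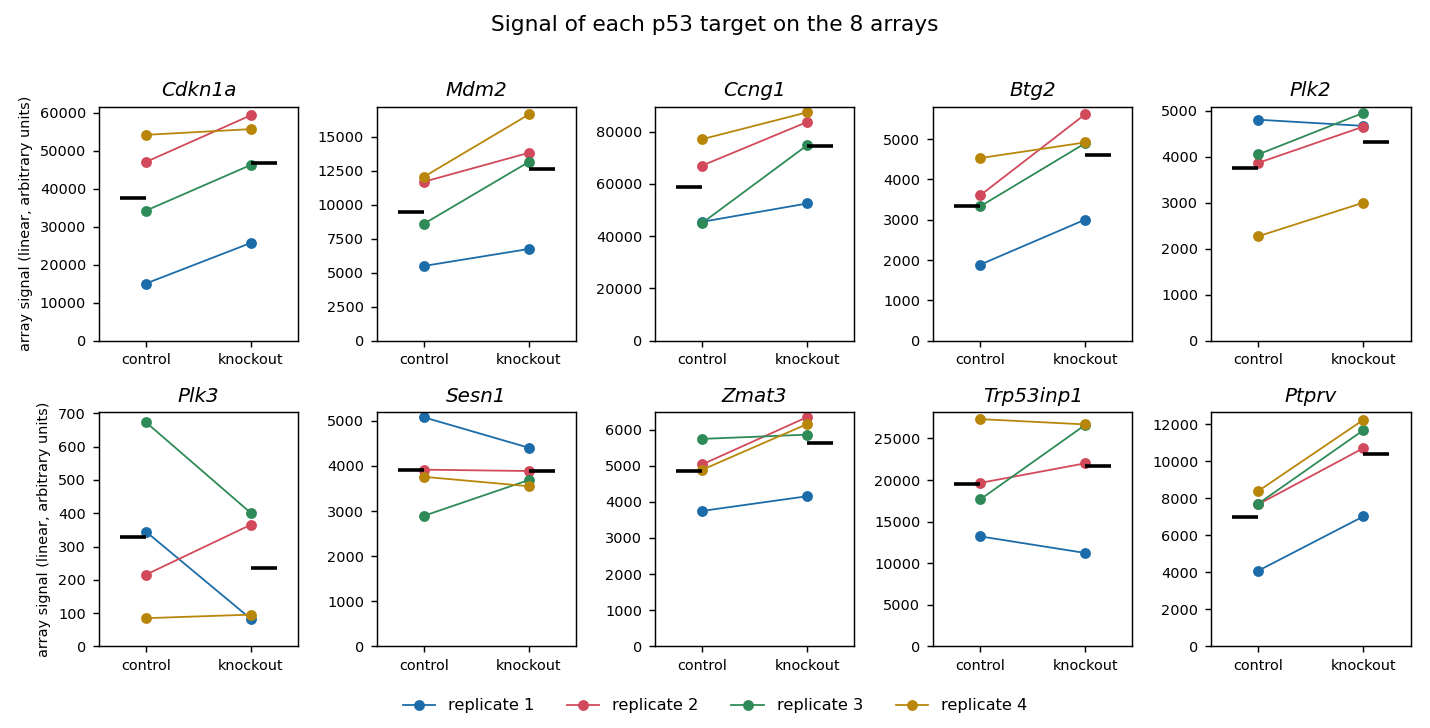
Array signal (linear, arbitrary units, axes from 0) of the brightest probe set of each of the 10 genes; points are single arrays, lines join control and knockout of the same replicate number, and black bars are group means of 4 arrays. All 4 lines slope upward for Cdkn1a, Mdm2, Ccng1, Btg2 and Ptprv, while replicate 1 lies lowest in both groups for these genes, except that control 3 is lowest for Ccng1.

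Ptprv, a receptor-type tyrosine phosphatase that is a p53 target needed for p53-dependent cell cycle arrest in mouse cells, had the largest difference of the 10. Its single probe set (1449957_at) read 4086, 7669.1, 7704 and 8386.7 in controls 1 to 4. In knockouts 1 to 4 it read 7016.5, 10701.4, 11669.3 and 12227.5. Knockout array 1 was the only knockout array below any control, so the groups overlapped by that array alone. The means were 6961 ± 1945 and 10404 ± 2344 (SD, n = 4 each), a log2 difference of 0.60 (SE 0.23) that was larger than that of 98.8% of genes. The pairs gave 0.77, 0.48, 0.59 and 0.54, and in the paired fit Ptprv rose (SE 0.08, limma adjusted p = 0.0336). That call was kept without pair 1 (adjusted p = 0.0348) and lost without pair 2 (0.086), pair 3 (0.176) or pair 4 (0.177). The unpaired difference was 0.36 when control array 1 was left out.

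Cdkn1a, which encodes the kinase inhibitor p21, differed more between replicate numbers than between groups. Its brightest probe set (1424638_at) read 15073.8, 47045.1, 34235.2 and 54172.6 in controls 1 to 4 and 25759.6, 59342.3, 46282.5 and 55677.3 in their knockout partners. The lowest array of each group was number 1, and the group ranges overlapped widely. The log2 difference was 0.39 (SE 0.36; paired SE 0.10, limma paired adjusted p = 0.215), with 0.77, 0.33, 0.43 and 0.04 in pairs 1 to 4. The other probe set (1421679_a_at) gave 0.40 (SE 0.34) but placed the pairs differently, at 0.31, 0.51, 0.65 and 0.12. Pair 4 was the smallest on both, while the pair that was largest on the brighter probe set was second smallest on the other. Without control array 1 the difference was 0.0065, and without knockout array 1 it was 0.66; each of these leaves the partner array unmatched. With pair 1 removed the paired fit gave 0.27.

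Btg2, an antiproliferative protein that recruits the deadenylation machinery, had the next largest difference after Ptprv. Probe set 1448272_at read 1887.1, 3603.4, 3330.3 and 4527.8 in controls 1 to 4 and 3003.2, 5612.6, 4894.8 and 4915.4 in their knockout partners. Knockouts 2, 3 and 4 lay above all controls, and knockout 1 lay above control 1 alone. The log2 difference was 0.49 (SE 0.25; limma paired adjusted p = 0.153), and 0.12 in pair 4 against 0.55 to 0.65 in the others. It was 0.24 without control array 1. The other Btg2 probe set (1416250_at) gave a difference of 0.37 with the pairs closer together, at 0.30, 0.34, 0.55 and 0.30.

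Zmat3, a zinc finger RNA-binding protein and p53 target, read 3748.1 to 5739.8 in controls and 4154.6 to 6343.2 in knockouts. Its log2 difference was 0.21 (SE 0.16), and the pairs gave 0.15, 0.33, 0.03 and 0.33. It was 0.091 without control array 1 and 0.35 without knockout array 1. Control array 3 was the highest of the controls, and pair 3 had the smallest difference.

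Mdm2, the ubiquitin ligase that marks p53 for degradation and is itself a p53 target, read 5508.9, 11706.8, 8615.7 and 12073.1 in controls 1 to 4 (1423605_a_at). Knockouts 1 to 4 read 6761.2, 13836.2, 13170.7 and 16662.2. Knockouts 2, 3 and 4 were above all controls and knockout 1 was above control 1 alone. The log2 difference was 0.40 (SE 0.28; limma paired adjusted p = 0.134), with 0.29, 0.24, 0.61 and 0.46 in the pairs, and it was 0.16 without control array 1 and 0.67 without knockout array 1. A dimmer probe set (1427718_a_at) gave 0.38, again above 0 in all 4 pairs. The remaining probe set (1457929_at) read 142.4 to 263.7 over all 8 arrays and was too dim to be tested.

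Ccng1, cyclin G1, which recruits a phosphatase to Mdm2, was measured by 3 probe sets, all annotated to the same accession. The brightest (1420827_a_at) read 45483, 66963.1, 45005.6 and 77049.4 in controls 1 to 4 and 52488.5, 83623.2, 74741.6 and 87333.4 in their knockout partners. Here both odd-numbered controls were low, and knockout 1 stayed below the even-numbered controls. Its log2 difference was 0.36 (SE 0.20; limma paired adjusted p = 0.216). Probe sets 1450017_at and 1450016_at gave 0.50 (SE 0.30) and 0.54 (SE 0.21). On all 3 every pair was above 0, and pair 3 was the largest, at 0.73, 0.96 and 0.85.

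Trp53inp1, a nuclear protein that aids the phosphorylation of p53, had no common direction over pairs. Probe set 1416926_at read 13233.7 to 27332.2 in controls and 11240.9 to 26693.6 in knockouts, and the pairs gave -0.23, 0.16, 0.59 and -0.03. The log2 difference of 0.12 (SE 0.27) was -0.0476 without control array 1. The dim probe set 1416927_at gave 0.25 (SE 0.25), with pair 4 below 0.

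**Figure D2:**
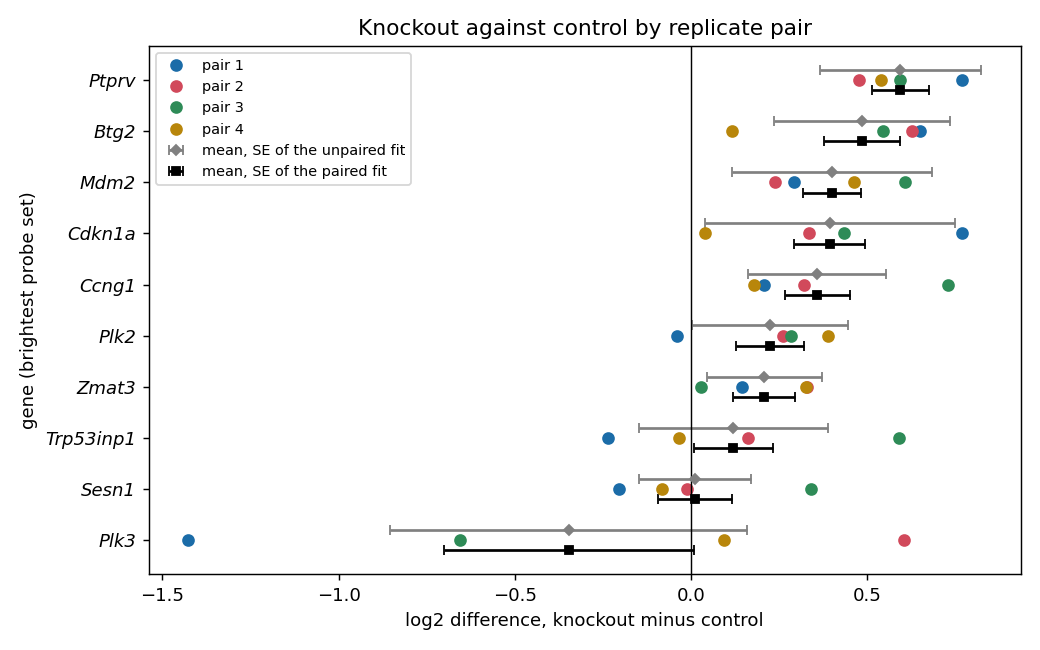
Log2 difference, knockout minus control, for the brightest probe set of each gene; coloured points are the 4 pairs, and squares and diamonds the mean with the SE of the paired and unpaired fit. All 4 points lie right of 0 for Ptprv, Btg2, Mdm2, Cdkn1a, Ccng1 and Zmat3 (pairs 2 and 4 of Zmat3 overlie), and the paired SE of Cdkn1a, 0.10, is shorter than its unpaired SE, 0.36.

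The polo-like kinases and Sesn1 were not higher in every pair. Plk2, a polo-like kinase induced by p53, read 4806.3, 3867.3, 4050.9 and 2272 in controls 1 to 4 and 4671.9, 4654.9, 4953.1 and 3001.7 in their knockout partners (1427005_at). Array 4 was the lowest of both groups. Its log2 difference was 0.22 (SE 0.22), with -0.04, 0.26, 0.29 and 0.39 in the pairs. It was 0.0064 without control array 4 and 0.39 without knockout array 4. The dim probe set 1443780_at, at 118.3 to 335.1, had a difference of -0.18 (SE 0.30) in the opposite direction, and the mean of both probe sets was 0.021.

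Plk3, a stress-responsive polo-like kinase, was dim and scattered. It read 344.6, 215.5, 673 and 84.9 in controls 1 to 4 and 82.3, 365.6, 400.2 and 95.6 in their knockout partners. The log2 difference was -0.35 (SE 0.51), and pairs ran from -1.43 to 0.60, with 2 of 4 above 0. Without control array 3 it was 0.0245.

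Sesn1, a sestrin that restrains mTORC1 signalling and a p53 target, was measured by 4 probe sets. The brightest (1438931_s_at) read 5077.7, 3917.4, 2895.9 and 3759.2 in controls 1 to 4 and 4402.4, 3887.9, 3690.3 and 3550.8 in their knockout partners, a log2 difference of 0.01 (SE 0.16). The difference was smaller than its SE, and it was -0.120 without control array 3. Probe set 1433711_s_at gave -0.30 (SE 0.14), lower in 4 of 4 pairs, while 1454699_at gave -0.01 (SE 0.17). The fourth, 1444376_at, was too dim to be tested. An s_at suffix marks probe sets whose probes may match transcripts of more than a single gene, so both s_at values of Sesn1 are uncertain.

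**Figure D3:**
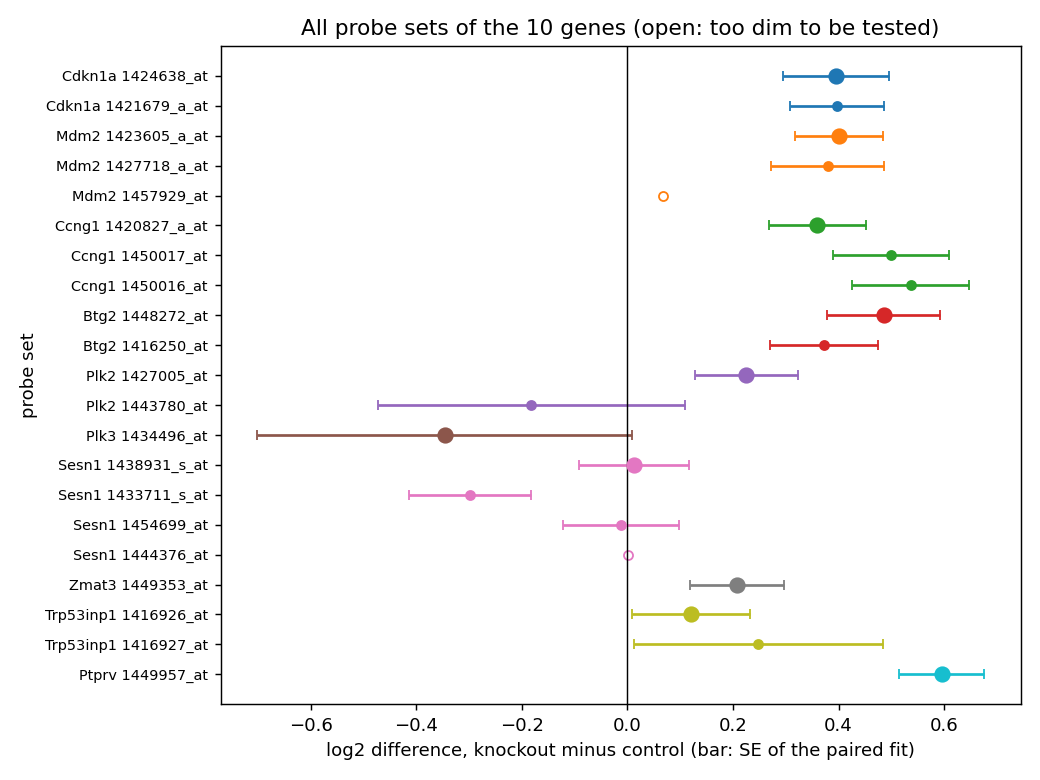
Log2 difference, knockout minus control, of all 21 probe sets, with the SE of the paired fit as bars; larger points are the brightest probe set of a gene and open points were too dim to be tested. Every tested probe set of Cdkn1a, Mdm2, Ccng1 and Btg2 lies between 0.36 and 0.54, whereas those of Plk2 and of Sesn1 lie on both sides of 0.

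On the brightest probe set of each of the 10 genes, replicate number accounted for most of the variation. There are more replicate numbers than groups, so part of this arises without any effect, and the share over all genes was not computed. Of the sum of squares of log2 values over the 8 arrays, 86.2% lay between replicate numbers and 9.59% between groups for Cdkn1a, and 82.6% and 15.4% for Mdm2. Ptprv had the largest share between groups among the 10 brightest probe sets, 39.8%, with 58.8% between numbers. Dimmer probe sets could differ from the brightest. Sesn1 1433711_s_at had 17.6% between numbers and 49.6% between groups, and Ccng1 1450016_at had 48.6% and 40.9%. Over the arrays Cdkn1a and Mdm2 correlated at 0.9537, Cdkn1a and Btg2 at 0.9592, and Btg2 and Ptprv at 0.9546 (Pearson, 8 arrays, which share replicate numbers and group). Plk2, Plk3 and Sesn1 correlated with Cdkn1a at -0.4797, -0.1756 and -0.592.

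Over the 10 genes the mean log2 deviation was lowest on control 1 (-0.46) and knockout 1 (-0.37), and it was -0.03 to 0.36 on the other 6 arrays. Cdkn1a was lower on all 4 odd-numbered arrays (at most 46282.5) than on all 4 even-numbered ones (at least 47045.1), a mean log2 difference (odd minus even) of -0.94, against a median absolute value of 0.18 over all genes. By the same measure 7 of the 10 genes were below 0, while Plk2 (0.46), Plk3 (0.69) and Sesn1 (0.06) were above it. The share below 0 over all genes was not computed. The 95th percentile of the absolute value over all genes was 0.61, exceeded by Cdkn1a, Mdm2 (-0.73) and Plk3. The control probe set for 18S ribosomal RNA at its 5′ end read 5905.9 to 14007.2 on the odd-numbered and 30583.9 to 43029.9 on the even-numbered arrays. The ratio of 3′ to 5′ signal was 0.956 to 1.13 for Gapdh and 1.66 to 2.06 for beta-actin over the 8 arrays. Lpl and Fabp4, which rise when preadipocytes turn into fat cells, were also low on the arrays numbered 1: Lpl read 10574.5 and 10006.4 there and at least 21831.9 elsewhere. The 5 adipocyte markers on the array summed to 12812 to 37919 in controls and 12048 to 38469 in knockouts, so their sums overlapped between groups. That sum is mostly Lpl, which had a log2 difference (knockout minus control) of 0.06 (SE 0.38). Fabp4 had one of 0.55 (SE 0.34; limma paired adjusted p = 0.251), with -0.14, 0.59, 0.94 and 0.82 in the pairs, while Adipoq, Lep and Cidec were too dim to be tested.

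Of the 11 stromal and preadipocyte markers, 3 were lower and 1 higher in the knockout in 4 of 4 pairs, against 9.47% and 8.64% of genes. By the log2 difference 5 were above 0 and 6 below. Dlk1, which is high in preadipocytes and declines as they mature, read 72944.1, 44809, 50687.1 and 26166.8 in controls 1 to 4 and 60140.3, 25167.6, 24502.7 and 15603.5 in their knockout partners. It fell in the paired fit (log2 difference -0.72, limma adjusted p = 0.0436; unpaired SE 0.37), a call kept without pair 1 (adjusted p = 0.00516) and lost without pair 2 (0.187), pair 3 (0.176) or pair 4 (0.191). The Dlk1 probe set (1449939_s_at) has the s_at suffix, so its value is uncertain in the same way as those of Sesn1. Dcn, a matrix proteoglycan, had a difference of -0.39 (SE 0.29) and Pdgfrb one of -0.18 (SE 0.29), both also lower in 4 of 4 pairs. Thy1, at 0.22 (SE 0.12), was the marker higher in 4 of 4 pairs. The 11 stromal and preadipocyte markers summed to 340310 to 404630 in controls and 321210 to 371940 in knockouts. The 8 markers of macrophages and leukocytes summed to 3567.7 to 4544.7 and 3449.2 to 3872.6, and the 7 of endothelium to 1815.8 to 2598.9 and 1769.4 to 2472.6. The 7 of skeletal muscle summed to 2011.4 to 3444.4 in controls and 2883.2 to 4062.1 in knockouts. Its 4 tested markers were all above 0 (median log2 difference 0.54), against 49.6% of genes, and 0 were called. Each of these sums overlapped between groups. The part of replicate number, 18S signal and these markers in the results was not tested.

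The log2 difference (knockout minus control) was also taken within the odd-numbered and within the even-numbered pairs. It was 0.60 and 0.19 for Cdkn1a, 0.45 and 0.35 for Mdm2, 0.47 and 0.25 for Ccng1, 0.60 and 0.37 for Btg2, 0.68 and 0.51 for Ptprv and 0.18 and 0.06 for Trp53inp1, larger in the odd-numbered pairs. It was 0.12 and 0.33 for Plk2 and 0.09 and 0.33 for Zmat3, larger in the even-numbered pairs. Signs were opposite for Plk3, at -1.04 and 0.35, and for Sesn1, at 0.07 and -0.05. With 2 pairs on each side, these values have no test.

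**Figure D4:**
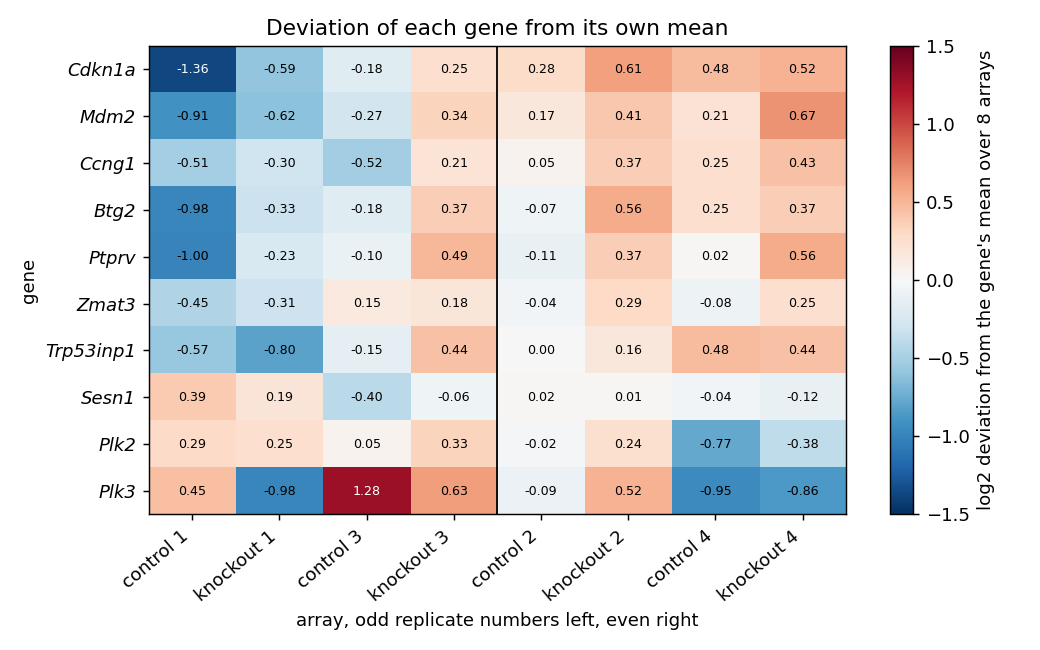
Log2 deviation of each gene (rows) on each array (columns) from the mean of that gene over the 8 arrays, red above and blue below, with odd replicate numbers on the left. The column of control 1 holds the lowest value of Cdkn1a (-1.36), Mdm2 (-0.91) and Btg2 (-0.98), and the rows of Sesn1, Plk2 and Plk3 do not follow it.

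The genes whose log2 values over the 8 arrays were most like those of Cdkn1a were Atf4 (r = 0.9859), Clstn2 (0.9828), Sesn2 (0.9776), Il20 (0.9762) and Ccdc124 (0.9722). Mdm2 ranked 27 and Btg2 ranked 20 of 13255 genes by this measure. Those most like Mdm2 were Sh3bgrl2 (0.9833), A930004D18Rik (0.9799), Ccdc3 (0.9785), Ei24 (0.9783) and Hoxc13 (0.9777), with Cdkn1a at rank 30. The arrays share replicate numbers, so these correlations describe that variation too.

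Of 12 tested relatives of the 10 genes, 6 had a log2 difference above 0, against 49.6% of genes, with a median of -0.0023. Among the other inhibitors of cyclin-dependent kinases, Cdkn1b (p27) had a log2 difference of 0.08 (SE 0.19) and Cdkn1c (p57) one of -0.50 (SE 0.33), lower in 4 of 4 pairs. Ccng2, the relative of Ccng1, gave -0.32 (SE 0.26), also lower in 4 of 4 pairs. The antiproliferative genes Btg1, Tob1 and Tob2 gave -0.01, -0.05 and 0.18, and the polo-like kinases Plk1 and Plk4 gave -0.06 and 0.01. Sesn2 and Sesn3 gave 0.18 and -0.16, and Trp53inp2 gave 0.22. Mdm4, the partner of Mdm2 that holds p53 inactive, gave 0.18 (SE 0.16), higher in 4 of 4 pairs. Mdm4 (1460542_s_at) and Plk4 (1419838_s_at) were read from s_at probe sets, so their values are uncertain too. Tob2 was read from an x_at probe set (1448667_x_at), whose probes may also match other sequences, so its value is likewise uncertain. None of the 12 was called in either fit; at an unadjusted p in the paired fit 0 were higher and 2 lower, against 4.96% and 5.36% of genes.

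Across the rest of the p53 pathway 0 genes were called in either limma fit. Of all genes tested, 49.6% were above 0. At an unadjusted p under 0.05 in the paired fit, 4.96% of all genes were higher and 5.36% lower. The lists below were chosen with earlier results of these data known, so their counts are not independent evidence of a direction. Trp53, which encodes p53 itself, and the cell death target Bax had no probe set with exactly that symbol, so neither has a value here. Of 13 tested regulators of p53, 7 were above 0 (median log2 difference 0.01). At an unadjusted p in the paired fit 0 were higher and 1 lower. The largest differences were those of Cdkn2a (-0.20, SE 0.12) and Mdm4. Of 13 targets of cell death, 12 were above 0 (median 0.24) and 7 were higher at that p. Perp (0.82, SE 0.31) and Eda2r (0.47, SE 0.28) were furthest from 0. Perp was dim, at 134 to 465.1 in controls and 313.7 to 532.2 in knockouts, and its pairs ran from 0.17 to 1.52. Of 12 targets of repair and metabolism, 7 were above 0 (median 0.05), 2 were higher and 2 lower at that p, with Gadd45a, a damage-response gene, at -0.50 (SE 0.28) and Tigar, a regulator of glycolysis, at 0.44 (SE 0.18). Of 9 further targets, 7 were above 0, 5 were higher and 2 lower at that p. The 2 below 0 were Igfbp3 (-0.55, SE 0.48), which binds insulin-like growth factors, and Ndrg1 (-0.52, SE 0.30). Ndrg1 was read from an x_at probe set (1456174_x_at), so its value is uncertain too. Of 24 cyclins, kinases, pocket proteins and proliferation genes that act downstream of p21, 15 were above 0 (median 0.08), 6 were higher and 3 lower at that p, and Ccnd1, cyclin D1, and Rb1, the retinoblastoma protein, had differences of 0.74 (SE 0.40) and 0.43 (SE 0.12).

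**Figure D5:**
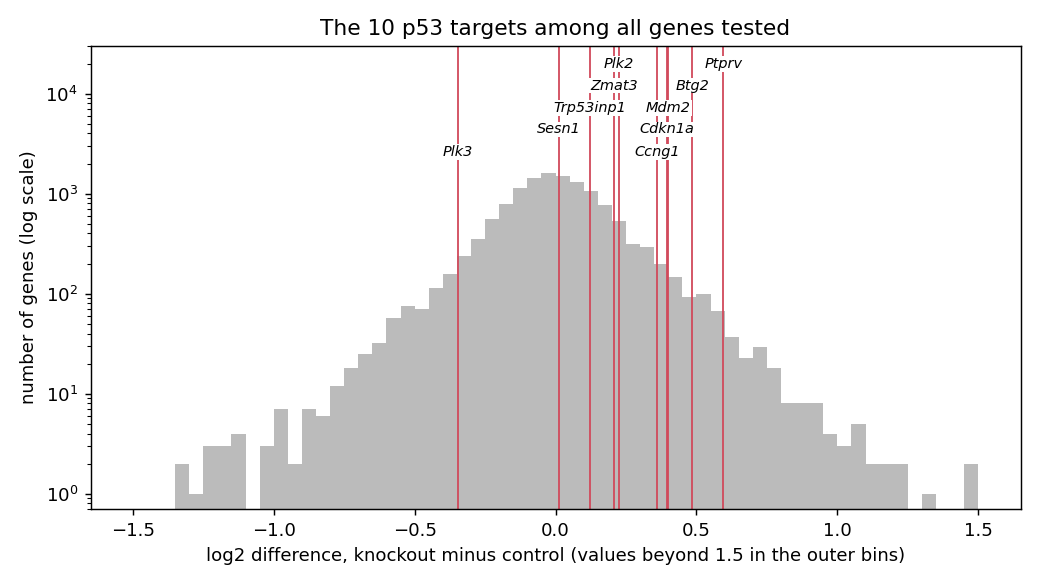
Number of genes (log scale) by log2 difference, knockout minus control, over the 13256 genes tested, with red lines for the 10 p53 targets. Plk3 lies left of 0 and the other 9 right of it, with Ptprv furthest out at 0.60 and Sesn1 at 0.01 (-0.0141 with median centring).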

How the data were processed

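The values deposited by the authors are array intensity (signal) per probe set on a linear scale, made with GCOS 1.3 and MAS5 per the submitters' processing notes; their 2% trimmed mean was 1500 on every array. The sources used here do not state any further normalization. From them, log2(signal + 73.1) was computed, 73.1 being the 20th percentile of all values, so differences of dim probe sets are understated. The upper 60% of non-control probe sets by mean (27022) were tested with limma 3.58.1 in R 4.3.3 on 4 control and 4 knockout arrays. The fit used lmFit and eBayes with a trend, two-sided, with Benjamini-Hochberg over all and a threshold of 0.05. The method was tested on simulated data with planted changes larger than those of the genes described here. Recovery of changes as small as theirs was not tested. Of the non-control probe sets, 34945 had 1 symbol, 932 several and 9160 none; the brightest tested probe set with 1 symbol stands for a gene. SE are those of the fit. Figures were drawn with matplotlib 3.10.9.

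Deviations from group means correlated at 0.342, 0.189, 0.199 and 0.373 for replicate numbers 1 to 4 across the groups, and at -0.347 to 0.149 for unlike numbers. Every value for a shared number exceeds 0.1, so numbers, which come from the labels, were taken as pairs. The highest value for unlike numbers also exceeds 0.1, though it is below every value for a shared number. The same arrays gave this check and the paired fit. The members and lists were chosen with earlier results of these data known. All members were named, and of other lists the relatives, Mdm4, Dicer1 and the 2 genes furthest from 0, while marker genes were named after their values were seen; likeness used the 5 genes with the highest r. Alternatives covered the block, pseudocount, filter, normalization, trend, arrays and pairs left out, and the choice of probe set.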

Additional observations from a re-analysis of the deposited data

Results flagged for a closer look

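Among 20 groups of 4 arrays, 2 held an array whose distance to its nearest neighbour took up more of the group's range than Dixon's 95% critical value for 4 values. Knockout array 4 was low for Plk2 (3001.7, ratio 0.847), and control array 1 was low for Ptprv (4086, ratio 0.833). Chance flags about 1 in 20 groups.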

How the results depend on the processing

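The paired fit, with the replicate block, moved the probe sets called from 1 to 13 and the 10 genes called from 0 to 1 (Ptprv). In that fit 80 probe sets were called without pair 1, 0 without pair 3 and 2 without pair 4, and the genes called were 1 without pair 1. No filter, median centring and no trend each left 0 probe sets called, and leaving out single arrays gave 0 to 2. The block changed no other call among the 10 genes. The median log2 difference of the 10 genes was 0.154 to 0.464 with single arrays left out, lowest without control 1 and highest without knockout 1. Sesn1, Plk3 and Trp53inp1 changed sign. Sesn1 was -0.0141 with median centring, -0.0980 in the paired fit without pair 3, -0.0457 in the even-numbered pairs, -0.0993 as the mean of its probe sets and -0.120 to 0.144 with single arrays left out. Plk3 was 0.0140 in the paired fit without pair 1, 0.349 in the even-numbered pairs and -0.722 to 0.0245 with single arrays left out. Trp53inp1 was -0.0351 in the paired fit without pair 3 and -0.0476 to 0.408 with single arrays left out. The other 7 genes were above 0 under every alternative run, but Plk2 reached 0.0064 without control array 4 and 0.021 as the mean of its probe sets, and Cdkn1a 0.0065 without control array 1. Causes were not tested. The lowest values of Plk3, 82.3 and 84.9, lie close to the pseudocount of 73.1.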
